A study of Drosophila melanogaster with 12 samples.

Results

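CG7214, CG7203, CG8736, CG3348, CG14022, CG11458, CG4000, Sid and CG42807 are 9 fly genes whose transcripts were lower in heads 24 h after a behavioural treatment than at 0 h. They were chosen by those measured values, that is, for their fall from 0 to 24 h, so their time differences are given as a description and no test is attached to them. They are 9 of the 11982 genes that had an array probe set of their own, and each was measured by 1 probe set. All 9 passed the filter on dim probe sets, which kept 8603 genes and 11261 of 18952 probe sets. The study hybridised total RNA from whole fly heads to 12 Affymetrix arrays, a chip on which a probe set of short oligonucleotides reports the level of a transcript as an intensity. The arrays form 4 groups of 3, which were heads taken 0 h after non-conditioning, 0 h after conditioning, 24 h after non-conditioning and 24 h after conditioning. All 4 groups carry the same word OR in their labels, which is not expanded there, and all are labelled with a behavioural stimulus. Age, sex, the number of flies per extract and the kind of conditioning are not stated in the labels. Some arrays of the conditioned 0 h group and 1 array of the conditioned 24 h group are labelled biological duplicates. Nothing of the kind is stated for the rest, so the spread behind a p-value is that between these arrays and may be technical.

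Of the 9 genes, 8 carry only a CG number, the running name that the fly genome annotation gives to a predicted gene, and no function is assigned to them here. Sid is named for stress induced DNase, a nuclease. A whole head holds brain, eyes, fat body, muscle and the epidermis that secretes the cuticle, a layer of chitin fibres and cuticle proteins hardened by tanning. In adult flies the cuticle goes on thickening after the animal emerges, and stress and infection switch on secreted proteins in the fat body. By the RefSeq gene table, CG7214, CG7203 and CG14022 lie on chromosome arm 2L, CG8736 and CG42807 on 2R, CG11458 on 3L, and CG3348, CG4000 and Sid on 3R. CG7214 lies next to Acp1, which encodes an adult cuticle protein, and CG4000 next to Cpr92F, a gene of the main cuticle protein family. Among the other neighbours are TotM beside CG14022 and Oamb on the other side of CG4000.

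The arrays had been scaled to the same trimmed mean, and their log2 values correlated at 0.987 to 0.995. The neuronal marker elav (intensity 623 to 766) and the glial marker repo (297 to 427) were measured on every array, while the summed intensities of 5 gut markers lay between 3.43 and 23.7. The photoreceptor marker ninaE had no probe set of its own. On 3 conditioned arrays (at 24 h replicates 1 and 2, at 0 h replicate 3), the yolk protein gene Yp1 reached 5026, 6653 and 4532 in that order, against 1.07 to 20.8 on the others. Non-conditioned replicate 3 at 0 h held 351 of the male accessory gland transcript Acp98AB, against at most 4.90 elsewhere. The conditioned time differences of the 9 genes and the counts for gene lists are given below with and without the 3 yolk protein arrays.

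CG7214 had the clearest gap between the times. At 0 h its intensity was 1552, 1385 and 1263 in replicates 1 to 3 of the non-conditioned heads and 1337, 1489.8 and 1699 in those of the conditioned heads. At 24 h it was 338, 534 and 326 without conditioning and 306, 410.0 and 309 after it. The groups at the same time overlapped, while the lowest 0 h array was 2.36 times the highest 24 h array. Group means were 1400.1 ± 145 (SD, n = 3) and 1509 ± 181 at 0 h and 399 ± 117 and 342 ± 59.2 at 24 h, in non-conditioned and conditioned heads in that order, as throughout. The ratio of the 0 h to the 24 h mean was 3.51 without and 4.42 with conditioning.

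CG7203 is separated from CG7214 by a single gene. It had 5004, 4634 and 5337 in non-conditioned and 4570.3, 4997 and 5491 in conditioned heads at 0 h. By 24 h the values were 2159, 3295 and 2803 without and 2238, 2667 and 2593 with conditioning. Here too the times did not overlap, with the lowest 0 h array 1.39 times the highest 24 h array, which was replicate 2 of the non-conditioned heads. That same array was also the highest of its group for CG7214. The ratio of means was 1.81 without and 2.01 with conditioning, a smaller difference than for its near neighbour.

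**Figure D1:**
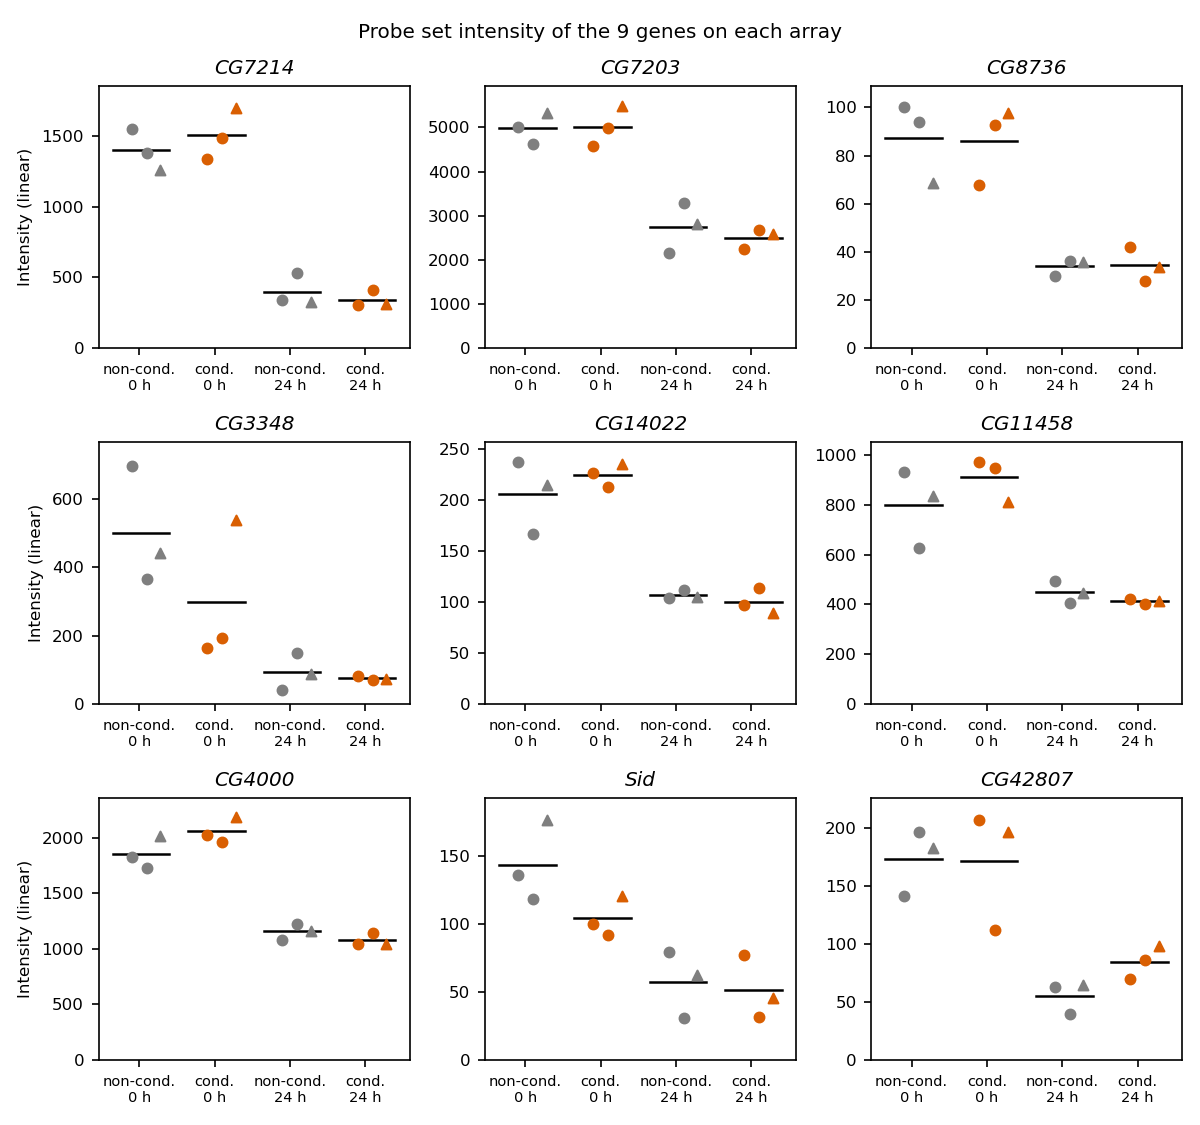
Intensity (linear scale, from 0) of each of the 9 genes on the 12 arrays, with non-conditioned heads in grey and conditioned heads in orange. Circles are arrays with # in the sample title, triangles the others, and bars are group means of 3 arrays. For every gene the 6 arrays at 24 h lie below the 6 at 0 h, and CG3348 shows the widest spread at 0 h (163 to 696).

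CG3348 had the largest ratio of means without conditioning, and the widest scatter. Non-conditioned heads at 0 h gave 696, 364 and 442, and conditioned heads gave 163, 192 and 536. The single high value of the conditioned group, 536, belonged to replicate 3, one of the 3 arrays with yolk protein transcripts. The values at 24 h were 41.3, 148 and 87.2 without and 82.5, 71.2 and 73.4 with conditioning. The lowest 0 h array thus exceeded the highest 24 h array by a ratio of only 1.10. Means were 501 ± 174 and 297 ± 208 at 0 h and 92.4 ± 53.8 and 75.7 ± 6.00 at 24 h (SD, n = 3), a ratio of 5.42 without and 3.92 with conditioning.

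CG4000 and CG11458 were steadier. CG4000 had 1822, 1731 and 2014 in non-conditioned and 2026, 1966 and 2188 in conditioned heads at 0 h. At 24 h it had 1082, 1226 and 1161 without and 1040.5, 1146 and 1044 with conditioning. The replicates of a group lay close together, and the ratio of means, 1.60 without and 1.91 with conditioning, was the smallest of the 9 genes in both arms. CG11458 had 932, 625 and 836, then 973, 948 and 811, at 0 h. It had 495, 407 and 447, then 423, 403 and 415, at 24 h. Its lowest 0 h array, non-conditioned replicate 2, was 1.26 times the highest 24 h array.

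In CG14022 and CG8736 the arms were close at both times. CG14022 had 237, 167 and 214 in non-conditioned and 226, 212 and 235 in conditioned heads at 0 h, and 104, 112 and 105, then 96.8, 114 and 89.5, at 24 h. Both 24 h groups lay near each other, at 107 ± 4.37 and 100.1 ± 12.5 (SD, n = 3). CG8736 had 100.1, 93.9 and 68.4, then 67.9, 92.5 and 97.6, at 0 h. Its values at 24 h were 29.9, 36.1 and 35.8, then 41.8, 28.0 and 33.5. The arms overlapped at both times, and the ratio of means was 2.58 without and 2.50 with conditioning.

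Sid, the DNase gene, and CG42807 varied between replicates. Sid had 136, 118 and 176 in non-conditioned and 100.2, 91.7 and 121 in conditioned heads at 0 h. At 24 h the values were 79.1, 30.9 and 62.9 without and 77.2, 31.6 and 45.4 with conditioning. Replicate 2 was the lowest array of all 4 groups for Sid, although these numbers pair no arrays. CG42807 had 141, 196 and 182, then 206, 112 and 196, at 0 h. It had 63.0, 39.3 and 64.2, then 70.0, 86.1 and 97.8, at 24 h. For both genes the lowest 0 h array stood just above the highest 24 h array, by a ratio of 1.16 for Sid and 1.14 for CG42807.

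All 6 arrays at 24 h lay below all 6 at 0 h for 9 of the 9 genes, and for 272 of all 11261 probe sets (2.42%). In the fit across all probe sets, the 9 were among the 233 lower at 24 h in non-conditioned heads (2.07%) and among the 222 lower in conditioned heads (1.97%). None was among the probe sets that were higher at 24 h, 355 without (3.15%) and 304 with conditioning (2.70%). The time differences chose the genes, so nothing is read from these counts. On the scale of log2(intensity + 16), which understates changes of dim probe sets, the 9 differences of 24 h minus 0 h ran from -2.33 to -0.67 without conditioning and from -2.10 to -0.86 with it. Their medians were -1.04 and -1.01, beside -0.00 and -0.01 over all probe sets. In whole heads, fewer cells of a type and less RNA per cell cannot be told apart.

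The order of the genes by the size of this difference was not the same in both arms. In non-conditioned heads CG3348 came first at -2.33 ± 0.35 (SE) and CG7214 next at -1.80 ± 0.15, whereas in conditioned heads CG7214 came first at -2.10 ± 0.15 and CG3348 next at -1.58 ± 0.35. Whether these neighbours in the order differ was not tested. CG42807 (-1.41 ± 0.17), Sid (-1.16 ± 0.23) and CG8736 (-1.04 ± 0.15) followed in non-conditioned heads. The remaining 4 genes lay between -0.87 and -0.67 there, with CG4000 the smallest at -0.67 ± 0.07. In conditioned heads 7 genes lay between -1.10 and -0.86, a range that their errors of 0.07 to 0.23 do not resolve into an order.

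**Figure D2:**
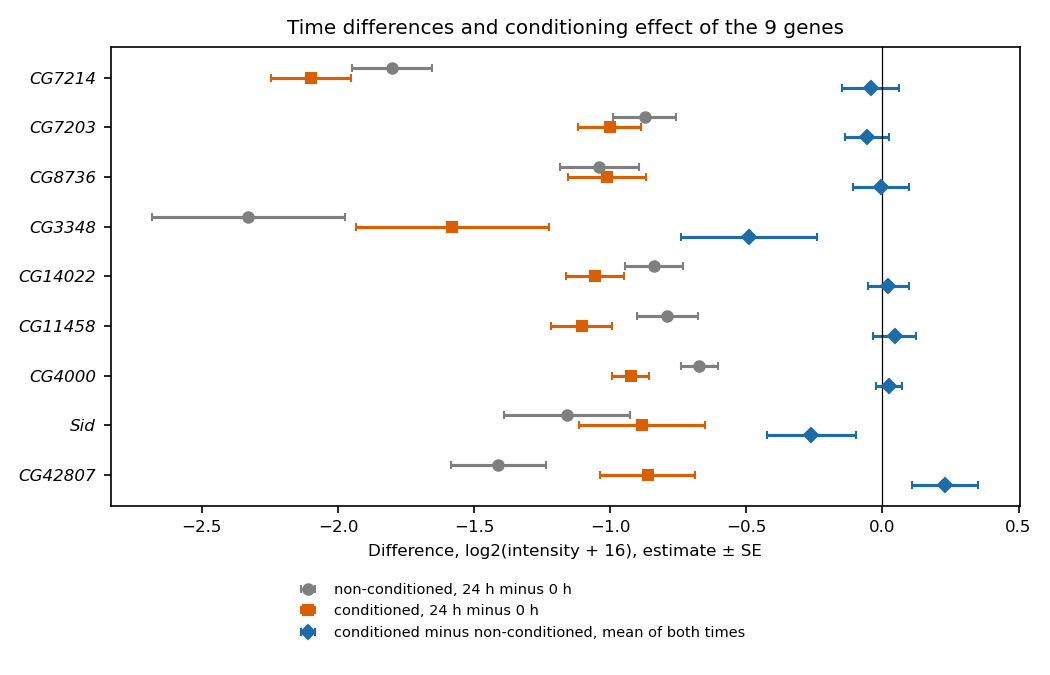
Differences of the 9 genes on the log2(intensity + 16) scale, as fitted estimates with bars of 1 SE, for time without conditioning (grey circles), time with conditioning (orange squares) and conditioning averaged over both times (blue diamonds). The time differences lie between -2.33 and -0.67 and chose the genes, and the averaged conditioning differences lie between -0.49 and 0.23.

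The sample titles have 2 forms, with and without a #, whose meaning is not stated. The # arrays are 2 of the 3 in each group. Within the # arrays the difference without conditioning ran from -2.42 (CG3348) to -0.62 (CG4000), and within the others from -2.15 (CG3348) to -0.70 (CG8736). With conditioning it ran from -1.95 (CG7214) to -0.75 (Sid) within the # arrays and from -2.63 (CG3348) to -0.90 (CG42807) within the others. CG3348 differed most between the forms, with -1.06 on the # arrays and -2.63 on the others in conditioned heads. The difference between the forms does not involve the selecting comparisons, and limma called it for none of the 9 genes at an adjusted p of 0.05, nor for any probe set (0%). At an unadjusted p under 0.05 the forms differed for 469 probe sets and for 0 of the 9.

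The conditioned time differences were also fitted without the 3 arrays with yolk protein transcripts. Without them, the conditioned difference was -1.84 for CG7214, -0.99 for CG7203, -0.78 for CG8736, -1.06 for CG3348, -1.19 for CG14022, -1.24 for CG11458, -1.02 for CG4000, -1.20 for Sid and -0.76 for CG42807. That leaves 1 conditioned array at 24 h, without a # in its title, which is assumed to vary like the other groups. The conditioned 0 h arrays that remain all have a #, so the title term rests on the non-conditioned arrays and is taken off these differences. That term was 0.335 for Sid, -0.291 for CG7214, -0.169 for CG8736 and -0.049 for CG3348. CG8736, at -1.01 with all arrays, and CG3348, at -1.58, lay closer to 0 in this fit, while Sid, at -0.88, lay further from it. Such shifts mix the loss of the 3 arrays with the title term, and the parts were not separated. Conditioned 0 h replicate 3 was the highest array of its group for 7 of the 9 genes, a count not made over all probe sets. The other yolk protein arrays, replicates 1 and 2 at 24 h, were each highest of their group for 4 genes and lowest for 4. Without conditioned 0 h replicate 3 alone, CG3348 had -1.06, Sid -0.85 and CG42807 -0.83. The part of the yolk protein transcripts in these values was not tested.

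Conditioning averaged over both times is the comparison that does not use the differences between times, since every group has 3 arrays. It asks whether the 9 transcripts were higher or lower after conditioning as such. Limma called 0 of the 9 genes, beside 13 of all 11261 probe sets (0.115%, of which 10 were higher and 3 lower). At an unadjusted p under 0.05 the counts were 0 of the 9 and 1154 of all probe sets. The 9 differences had a median of -0.01, beside 0.01 over all probe sets, and 5 of the 9 were below 0. The test does not show that the arms were alike, and its intervals differed in width between genes.

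CG4000 was bounded most closely, with an averaged difference of 0.03 ± 0.05 (SE, limma adjusted p = 0.904) and a 95% interval from -0.08 to 0.13. CG7214 had -0.04 ± 0.10 (limma adjusted p = 0.923, interval -0.26 to 0.18) and CG7203 had -0.06 ± 0.08 (limma adjusted p = 0.859, interval -0.23 to 0.12). CG8736, CG14022 and CG11458 lay between -0.01 and 0.05, with limma adjusted p-values of 0.992, 0.956 and 0.891. The intervals of these 6 genes lay between -0.26 and 0.21. Differences further from 0 were measured for CG3348, at -0.49 ± 0.25 (limma adjusted p = 0.529, interval -1.02 to 0.04), and for Sid, at -0.26 ± 0.16 (limma adjusted p = 0.619, interval -0.61 to 0.09). CG42807 lay on the other side, at 0.23 ± 0.12 (limma adjusted p = 0.543, interval -0.03 to 0.49).

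The conditioning differences at each time share arrays with the differences that chose the genes, and are given as values. At 0 h the fit called 65 probe sets (0.577%) and 0 of the 9 genes, and the arms did not overlap for 1976 probe sets (17.5%) and for 0 of the 9. At an unadjusted p under 0.05 the counts at 0 h were 1372 of all probe sets and 2 of the 9, CG3348 and CG4000. CG3348 had the largest value there, -0.86 ± 0.35 (SE), and -1.39 without conditioned replicate 3. Sid had -0.40 ± 0.23, with its highest conditioned array (121) above its lowest non-conditioned one (118). CG11458 and CG4000 were on the other side, at 0.20 ± 0.11 and 0.15 ± 0.07. The other 5 genes lay between -0.04 and 0.13.

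At 24 h the fit called no probe set (0%) and 0 of the 9. An unadjusted p under 0.05 was found for 488 of all probe sets and for 1 of the 9, CG42807. Of the 9 genes, 7 had a difference below 0, and their median was -0.11, beside 0.00 over all probe sets. CG42807 was the only one of the 9 whose arms did not overlap at 24 h, as for 1179 of all probe sets (10.5%). Its conditioned arrays had 70.0, 86.1 and 97.8 and its non-conditioned arrays 63.0, 39.3 and 64.2, a difference of 0.50 ± 0.17. The change of the conditioning difference from 0 h to 24 h was likewise called for no probe set (0%). Its unadjusted p was under 0.05 for 810 of all probe sets and for 2 of the 9, CG4000 and CG42807. This change ran from -0.31 ± 0.16 (CG11458) to 0.75 ± 0.50 (CG3348) over the 9 genes, and was 0.55 ± 0.24 for CG42807 and -0.25 ± 0.10 for CG4000.

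Of the genes next to the 9 on their chromosomes, 8 were tested and 1 was called between the times. ATPsynGL, named for its likeness to a subunit of the mitochondrial ATP synthase, lies between CG7214 and CG7203. Its intensity was only 2.76 to 14.8, and its difference was 0.13 without conditioning and -0.01 with it (limma adjusted p = 0.724 and 0.986). Acp1, on the far side of CG7214, had no probe set with its symbol alone. Cpr92F beside CG4000 had -0.09 and -0.00 (limma adjusted p = 0.798 and 0.996), at an intensity of 10.9 to 23.7.

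The gene called was fng beside CG11458. It encodes a glycosyltransferase that modifies the Notch receptor. The gene fng fell by 0.20 in conditioned heads (limma adjusted p = 0.0374), while its difference without conditioning was -0.13 (limma adjusted p = 0.188). Cype beside CG14022, a subunit gene of cytochrome c oxidase, had -0.23 and -0.11 (limma adjusted p = 0.104 and 0.487). Hmu and CG3339 beside CG3348, Lnpk beside CG8736 and snu beside Sid had differences between -0.15 and 0.32, none of them called. CG13334 beside CG42807 did not pass the filter.

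**Figure D3:**
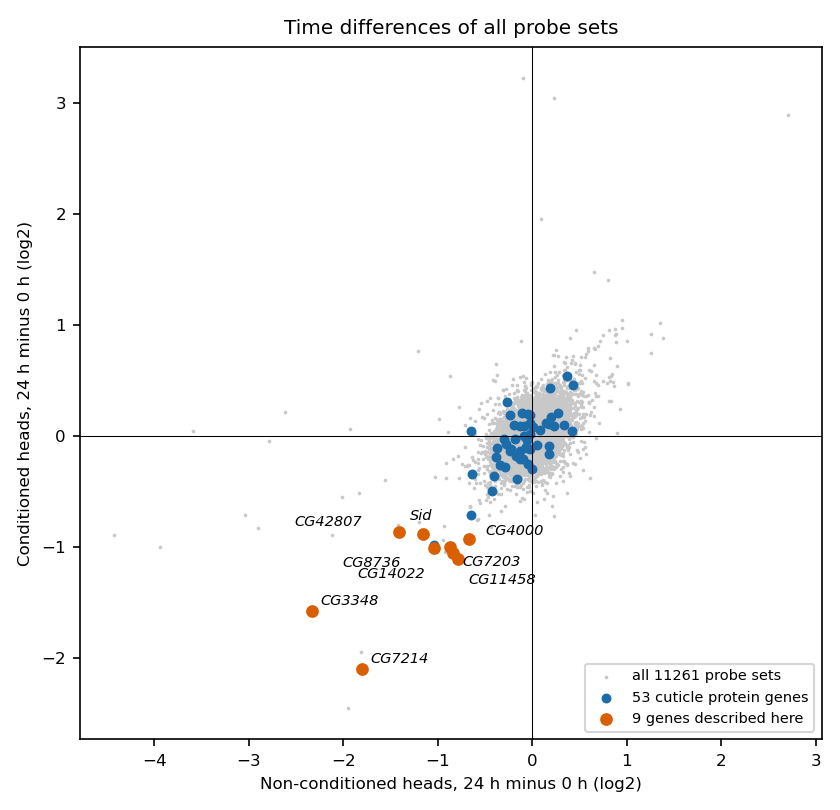
Difference of 24 h minus 0 h (log2) in non-conditioned heads (horizontal) and conditioned heads (vertical) for all 11261 probe sets (grey), 53 other genes of cuticle proteins (blue) and the 9 genes (orange, named). The 9 genes lie at the lower left, where they were chosen to lie, at or below -0.67 on the horizontal and -0.86 on the vertical axis. The cuticle protein genes lie mostly near 0, and many of them are dim, where this scale understates changes.

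The transcripts whose pattern over the 12 arrays was most like that of CG7214 were those of Lsm12a (Pearson r = 0.98), Tsp42Ej (0.98), Cisd2 (0.97), CG42319 (0.97) and Cchl (0.97). For CG7203 they were Tsp42Ej (0.99), Mf (0.97), SERCA (0.97), Non1 (0.96) and NdufV3 (0.96). These correlations are a description over 12 arrays that share 2 times and their labelling, and were the highest of all probe sets with 1 gene symbol. Their time differences were smaller than those of the pair they follow. They were named for a pattern in which the times differ, so their time differences are values with no test. Tsp42Ej, a tetraspanin membrane protein gene on both lists, had -0.22 without conditioning and -0.25 with it. CG42319 had -0.39 and -0.50, the furthest from 0 of the genes on either list. Mf, which encodes a protein of muscle thick filaments, had -0.33 and -0.35. SERCA, the calcium pump of the endoplasmic and sarcoplasmic reticulum, had -0.28 and -0.31. Lsm12a had -0.13 in both arms.

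Cuticle proteins were counted because cuticle genes lie beside CG7214 and CG4000. Of 132 listed genes other than the 9, 111 were on the array and 53 passed the filter, and in each arm 1 rose and 4 fell at a limma adjusted p of 0.05. Over all probe sets 3.15% rose and 2.07% fell without conditioning, and 2.70% and 1.97% with it. The conditioned count of 5 became 0 without the 3 arrays with yolk protein transcripts and 2 on the # arrays alone, and the non-conditioned count of 5 became 3 without those 3 arrays. The fit without those 3 arrays leaves 1 conditioned array at 24 h. In it the conditioned calls over all probe sets fell too, which applies to the lists below as well. The cuticle genes had a median difference of -0.09 without and -0.04 with conditioning, beside 0.00 and -0.01 over the 8603 genes. Cpr97Eb, a chitin-binding cuticle protein gene, had group means of 97.7 and 104 at 0 h and 39.1 and 44.9 at 24 h. It fell by 1.04 and 0.98 (limma adjusted p = 7.76e-05 and 0.000196), a size within the range of the 9 genes. Cpr49Ag fell by 0.65 and 0.71 (limma adjusted p = 0.00358 and 0.0023) and Cpr100A by 0.42 and 0.50 (limma adjusted p = 0.000678 and 0.000225), while Cpr60D rose by 0.43 and 0.46 (limma adjusted p = 0.0388 and 0.0294). The other falling gene was TwdlY without conditioning (-0.65, limma adjusted p = 0.0472) and Cpr49Ae with it (-0.38, limma adjusted p = 0.0195), and both are named here after their values were seen. TwdlY was near background on all arrays, at 0.896 to 15.3.

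Of 44 genes of chitin metabolism and binding, 26 were tested, of which 2 rose and 3 fell without conditioning and 1 rose and 2 fell with it. Without the 3 yolk protein arrays these counts of 5 and 3 became 3 and 0. Serp, which encodes a chitin deacetylase, had means of 147 and 129 at 0 h and 86.2 and 76.7 at 24 h. The gene serp fell by 0.66 and 0.64 (limma adjusted p = 0.00125 and 0.00218), and Gasp, a chitin-binding protein of the tracheal lining, fell by 0.39 and 0.29 (limma adjusted p = 0.00483 and 0.039). Cht7, a chitinase gene, fell by 0.51 without conditioning (limma adjusted p = 0.0235) and had -0.41 with it (limma adjusted p = 0.0783). Idgf2, of the chitinase-like growth factors, rose by 0.28 without conditioning (limma adjusted p = 0.0184) and had 0.12 with it (limma adjusted p = 0.34). Its relative Idgf5, named after its values were seen, rose by 0.21 in both arms (limma adjusted p = 0.0332 and 0.0445). The median of this list was -0.02 without and 0.01 with conditioning, near that over all genes.

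Of 29 genes of tanning and pigment, 17 were tested and none fell. Yellow-e, of the family of the pigment gene yellow, accounted for the 1 that rose without conditioning. The yellow-e means were 277 and 262 at 0 h and 353 and 329.5 at 24 h, a rise of 0.33 and 0.32 (limma adjusted p = 0.00662 and 0.0117). With conditioning yellow-f2 rose as well, by 0.34 (limma adjusted p = 0.00431), and had 0.20 without it (limma adjusted p = 0.0793). The medians were 0.08 and 0.15. The 2 calls with conditioning became 0 without the 3 yolk protein arrays.

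Of 18 genes of other DNA and RNA nucleases, listed as relatives of Sid in kind, only 6 passed the filter. Limma called 0 of the 6 in either arm, with 2 at an unadjusted p under 0.05 in each. Over all 11261 probe sets these unadjusted counts were 2021 without and 2055 with conditioning. In the same order they were 15 and 7 of 53 cuticle, 9 and 5 of 26 chitin, and 4 and 6 of 17 tanning genes. The median of the nucleases was -0.09 without and -0.15 with conditioning. Of 34 genes of the stress response, 13 were tested, and without conditioning 5 had an unadjusted p under 0.05 and 3 were called, all lower. These 3 were Diedel, a small secreted protein gene induced by infection (-2.61 ± 0.58 (SE), limma adjusted p = 0.0137), TotC, a Turandot stress gene (-2.02 ± 0.30, limma adjusted p = 0.000617), and Gadd45, a DNA damage response gene (-0.71, limma adjusted p = 0.0415, at a low intensity of 2.84 to 29.5). The 0 h arrays of Diedel without conditioning were uneven, with a mean of 322 and a highest value of 751, and its 24 h mean was 15.4. The TotC means were 1781.5 and 487, and its arrays ran from 189 to 2528. With conditioning limma called 0 of the 13, with 2 at an unadjusted p under 0.05. The values of the 3 named genes were 0.21, -0.55 and 0.10 there (limma adjusted p = 0.901, 0.367 and 0.846). For no probe set was the difference between the arms in the change over time called. In all 5 lists limma called 0 genes for conditioning averaged over both times. At an unadjusted p under 0.05 the counts there were 5 of 53 cuticle, 2 of 26 chitin and 0 of 17 tanning genes. They were 1 of 6 nuclease and 5 of 13 stress genes, beside 1154 of all 11261 probe sets.

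**Figure D4:**
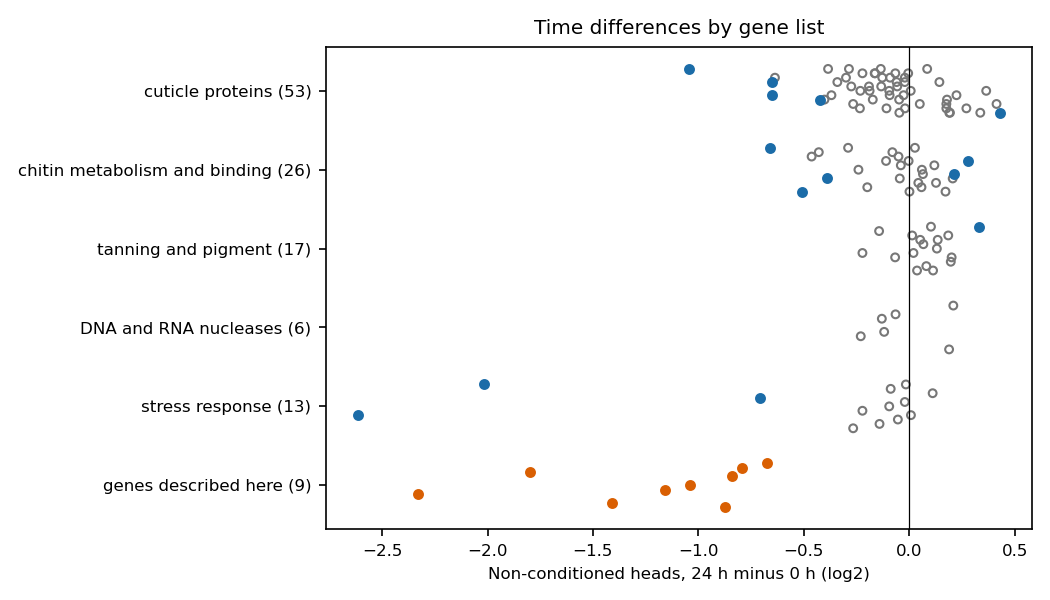
Difference of 24 h minus 0 h (log2) in non-conditioned heads for the tested genes of 5 lists, with their number in brackets, and for the 9 genes. Filled points had an adjusted p under 0.05 and open points did not, and the vertical offset within a list has no meaning. In the cuticle list 4 filled points lie below 0 and 1 above, and all 9 genes lie at or below -0.67 by their choice.

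Markers of some cell types also differed between the times. The summed intensity of the 6 markers of epidermis and trachea, all measured, was 1321 to 1467 and 1288 to 1299 in non-conditioned and conditioned heads at 0 h, and 1150.2 to 1174 and 1099.9 to 1208 at 24 h. Of these, serp and Gasp fell in both arms, and grh, a transcription factor gene of epidermis, rose by 0.25 with conditioning (limma adjusted p = 0.0284). The chitin synthase gene kkv was near background on all arrays, at 1.86 to 19.2. For 4 of 6 muscle markers the sums were 1446 to 1675 and 1424 to 1432 at 0 h, and 1177 to 1339.8 and 1176 to 1221 at 24 h. The troponin T gene up fell by 0.24 and 0.35 (limma adjusted p = 0.027 and 0.00245), and the paramyosin gene Prm by 0.29 without conditioning (limma adjusted p = 0.0136). TpnC4, a troponin C gene of flight muscle, was at 0.19 to 9.26 on all arrays. The 6 fat body markers had sums of 5221 to 5691 and 4547 to 12982 at 0 h and 6644 to 9042 and 7437 to 26568 at 24 h, and in conditioned heads, where the yolk protein arrays set the upper ends, the times overlapped. Without conditioning 3 of the 6 (tobi, fit and Lsp2) were called higher, and with it 2 (tobi and Lsp2), while the 3 yolk protein genes were called in neither arm. Among them tobi, a glucosidase gene, rose by 0.65 and 1.48 (limma adjusted p = 0.000288 and 8.42e-08).

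In non-conditioned heads the neuronal, hemocyte, glial and photoreceptor sums overlapped between the times. In conditioned heads the neuronal and glial sums were lower on all 24 h arrays, but limma called none of these markers there. Of the neuronal markers nSyb had -0.19 and elav -0.03, while Appl had 0.01 and brp 0.16. Of the glial markers alrm had -0.19, Gs2 -0.11 and moody -0.06, while nrv2 had 0.02 and repo 0.09. How many probe sets show such a gap was not counted. For 4 of 5 neuronal markers the sums were 2649 to 2689 and 2669 to 2825 at 0 h, and 2530.0 to 2721 and 2600.0 to 2647 at 24 h. The 4 hemocyte markers had 998 to 1117 and 1040.3 to 1092 at 0 h, and 992 to 1144 and 999.7 to 1045 at 24 h. The 5 glial markers had 8409 to 8802 and 8278 to 8636, then 7653 to 8424 and 7656 to 8213. For 5 of 6 accessory gland markers the sums were 27.7 to 712 and 16.3 to 25.7 at 0 h, and 14.5 to 23.2 and 23.4 to 28.0 at 24 h. In non-conditioned heads all 24 h arrays were lower, but the 712 was that of 0 h replicate 3 alone. On every other array each of these markers was near background, at no more than 15.1. Limma called 0 of the 2 that passed the filter. For 2 of 5 photoreceptor markers the sums were 13214 to 17665 and 13317 to 14096, then 10871 to 15174 and 12932 to 14366. The part of any of these cell types in the time differences of the 9 genes was not tested.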

How the data were processed

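Values of 18952 probe sets on 12 arrays were used as deposited by the authors, as linear intensities. They came from a program and background correction not given in the sources used here, and were scaled, since the 2%-trimmed mean was 150 on all arrays. The value analysed was log2(intensity + 16), with no further normalization, since array medians ranged over 0.075. After removal of 183 control probe sets, those in the upper 60% by mean log2 value were kept, 11261 in all. Of 13647 probe sets with 1 gene symbol, 13544 were matched to RefSeq (Release 6 plus ISO1 MT), and 402 with several symbols and 4720 with none were not named. The array table names no genome build, so no coordinates are given.

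The model, fitted in R 4.3.3 with limma 3.58.1, had 4 group means, a title form term and eBayes with trend (7 residual degrees of freedom, 15.7 after moderation). P-values are two-sided and Benjamini-Hochberg adjusted over all 11261 probe sets. The number of arrays limits the precision. On simulated data with 200 probe sets changed, the fit for conditioning averaged over both times recovered 49.3% of changes of 0.3, 77.6% of 0.5 and 100% of 1 (log2), with 5 false calls. The members, lists and tests were chosen with earlier results of these data known. Replicate numbers follow accession order and pair nothing. Named besides the 9 genes are the 5 genes of highest correlation with CG7214 and CG7203, up to 4 called genes per list by lowest p without conditioning, chromosomal neighbours and marker genes. For each gene of a list the brightest probe set was used. Alternatives covered the title term, arrays used, normalization, centring, offset, filter and variance model.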

Additional observations from a re-analysis of the deposited data

How the results depend on the processing

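No paired analysis was possible because the labels give the groups no shared replicate numbers. The count of the 9 genes called for conditioning averaged over both times, at 0 h, at 24 h, for the interaction and for the title form was 0 in every setting run. The time differences chose the 9 genes, so how many of them are called lower at 24 h is given for each setting as a description and not as a sign of stability. Without conditioning it was 9, 9 with any array left out, and 8 on the # arrays alone. In the upper 40% by mean level, 8 of the 9 genes were fitted and all 8 were called in each arm. With conditioning it was 9, from 6 to 9 with an array left out (the lowest when conditioned 0 h replicate 3 was dropped), 6 on the # arrays alone or with no variance trend, 7 with no filter, and 8 with an offset of 1. It was 4 when the 3 arrays with yolk protein transcripts were dropped, which leaves 1 conditioned array at 24 h. Over all probe sets, counts of calls between the times were 588 without conditioning (297 to 755 with an array left out, 246 to 678 otherwise) and 526 with it (227 to 729, and 18 to 653, the lowest without the yolk arrays). For the averaged conditioning comparison they were 13 (0 to 21, and 0 to 22), and at 0 h 65 (14 to 150, and 8 to 88).

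Counts of list genes called between the times moved more, and the cause was not tested. Cuticle genes were 5 without conditioning (3 to 6 with an array left out) and 3 with no filter, no variance trend or no yolk arrays. With conditioning they were 5 (3 to 5), 2 on the # arrays, 3 with no filter or no trend, and 0 without the yolk arrays. Chitin genes were 5 without conditioning (2 to 5), 2 on the # arrays, and 3 with no trend or no yolk arrays. With conditioning they were 3 (1 to 4), 1 with median centring, no filter or no trend, and 0 without the yolk arrays. Tanning genes were 1 without conditioning (0 to 2), 0 on the # arrays and 2 with median centring. With conditioning they were 2 (1 to 3), 1 on the # arrays or with no trend, and 0 without the yolk arrays. Nuclease genes were 0 (0 to 1) without and 0 with conditioning. Stress genes were 3 without conditioning (2 to 3) and 1 with no filter or no trend. With conditioning they were 0 (0 to 2), 1 with quantile normalization and 2 in the upper 40%.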
